A study of Homo sapiens with 4 samples.

Results

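The genes described here encode the proteins of the cytosolic ribosome and their close copies. A probe was a member when the platform annotation gave it a single symbol starting with RPL or RPS and a digit, or RPLP0, RPLP1, RPLP2 or RPSA, with S6 kinase and pseudogene symbols left out. This gave 129 of the 47231 probes and 79 of the 20046 genes named on the array, 50 with an RPL symbol and 29 with an RPS symbol. Of these genes, 68 encode standard subunits, 10 are paralogs of a standard subunit, and 1, RPS19BP1, encodes a protein that binds RPS19 and is not itself a subunit. RPSA and RPLP0 had no probe with a single symbol in the annotation and were not analysed here.

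Messenger RNA was measured on Illumina bead arrays in LNCaP cells, an established human prostate cancer line with luminal features, kept in RPMI medium with 10% fetal bovine serum. One group was transfected with 50 nM miR-31 and the other with 50 nM miR-NC, a control microRNA, each for 48 h and with 2 arrays. Both groups were therefore transfected cells, and the labels do not give the sequence or the arm of the microRNA used. The labels call the arrays repeats and name no separate cultures, so every p-value here speaks for the variation among these 4 arrays alone, and that variation may be technical.

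A cytosolic ribosome joins a large subunit, built on RPL proteins, to a small subunit, built on RPS proteins, and most standard proteins are normally present once. Vertebrate mRNAs for these proteins start with a C followed by a run of C and T bases, the 5′ terminal oligopyrimidine or TOP motif, through which mTOR and LARP1 control their translation. Their transcripts are among the most abundant of a growing cell, and they are usually controlled as a group and more at translation than at the level of mRNA, which is what these arrays read.

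The start of most of these genes with a promoter entry shows this feature, though some of the windows below lack it. The windows are given for the genes whose values are described most closely and for their copies. For a gene with several entries, the one with the longest such run is shown. Sequences are from RefSeq on GRCh38.p14, on the strand of the gene, 15 bases before and 15 bases from the start site on, and capitals mark the unbroken run of C and T that begins with a C at the start site.
RPL36A (chrX:101390996-101391025, +): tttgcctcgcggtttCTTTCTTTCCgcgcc
RPL36AL (chr14:49620612-49620641, -): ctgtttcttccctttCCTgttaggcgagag
RPL7L1 (chr6:42879601-42879630, +): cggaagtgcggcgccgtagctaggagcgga
RPL28 (chr19:55385917-55385946, +): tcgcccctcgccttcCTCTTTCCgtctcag
RPL22 (chr1:6199581-6199610, -): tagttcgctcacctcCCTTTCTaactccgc
RPL22L1 (chr3:170870181-170870210, -): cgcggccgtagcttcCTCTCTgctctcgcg
RPL26 (chr17:8383179-8383208, -): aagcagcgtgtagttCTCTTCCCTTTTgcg
RPL26L1 (chr5:172958714-172958743, +): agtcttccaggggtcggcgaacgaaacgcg
RPS27 (chr1:153990747-153990776, +): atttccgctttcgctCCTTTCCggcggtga
RPS27L (chr15:63157463-63157492, -): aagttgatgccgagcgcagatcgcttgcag

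For orientation, the mature microRNA that RefSeq lists for the 5′ arm of MIR31 is 21 bases long and is shown with its seed, bases 2 to 8, in capitals. Transcript sequences were not used here, so no ribosomal protein mRNA was searched for a match to it.
hsa-miR-31-5p (chr9:21512158-21512178, -): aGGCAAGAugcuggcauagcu

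Of all probes, 34.6% and 40.7% were detected on the miR-31 arrays, and 38.1% and 37.6% on the miR-NC arrays. Of the 129 ribosomal protein probes, 119 and 122 were detected on the miR-31 arrays, and 119 and 120 on the miR-NC arrays. Tested were 119 of them, for 76 genes, because they were detected on at least 2 of the 4 arrays. RPL10, a large subunit protein at the core of the joining surface, and the paralogs RPL3L, known from striated muscle, and RPL39L, known from testis, had no tested probe. Of 9 luminal prostate markers with a probe, 8 were tested, among them KLK3, KLK2, HOXB13 and KRT8, while the probes for KRT18 were not. KLK3 was dim, at a signal percentile of 34.3 among tested probes. None of the 2 basal or 4 fibroblast markers was tested, and of 3 leukocyte markers only CD68 was. Within the luminal list, limma called ACP3 (log2 change -1.54, adjusted p = 0.00192) and TMPRSS2 (-0.72, adjusted p = 0.0191) lower with miR-31; their part in the ribosomal protein values was not tested.

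As a group, the ribosomal protein genes had nearly the same mRNA signal with miR-31 as with miR-NC after quantile normalization. The median log2 change, miR-31 minus miR-NC, was 0.016 over the 76 genes tested, with quartiles of -0.10 and 0.12, and 39 values were above 0 and 37 below. One gene, RPL36A, was called lower, none was called higher and 75 were not called, at an adjusted p under 0.05 in limma. That is 1.32% of the genes, where 7.66% of the 10754 genes tested were called, 5.24% lower and 2.43% higher. At an unadjusted p under 0.05 there were 5 genes, or 6.58%, against 25.3% of all genes: RPL36A, RPL28 and RPL7L1 with negative changes and RPS19BP1 and RPS2 with positive ones. By probe, 2 of 119 were called, both lower (1.68%), against 6.17% of all 18354 probes, 4.07% lower and 2.1% higher. The whole-table split was 385 higher and 747 lower; with median alignment in place of the quantile step it was 61 higher and 45 lower, and RPS2 replaced RPL36A as the only ribosomal protein gene called.

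**Figure D1:**
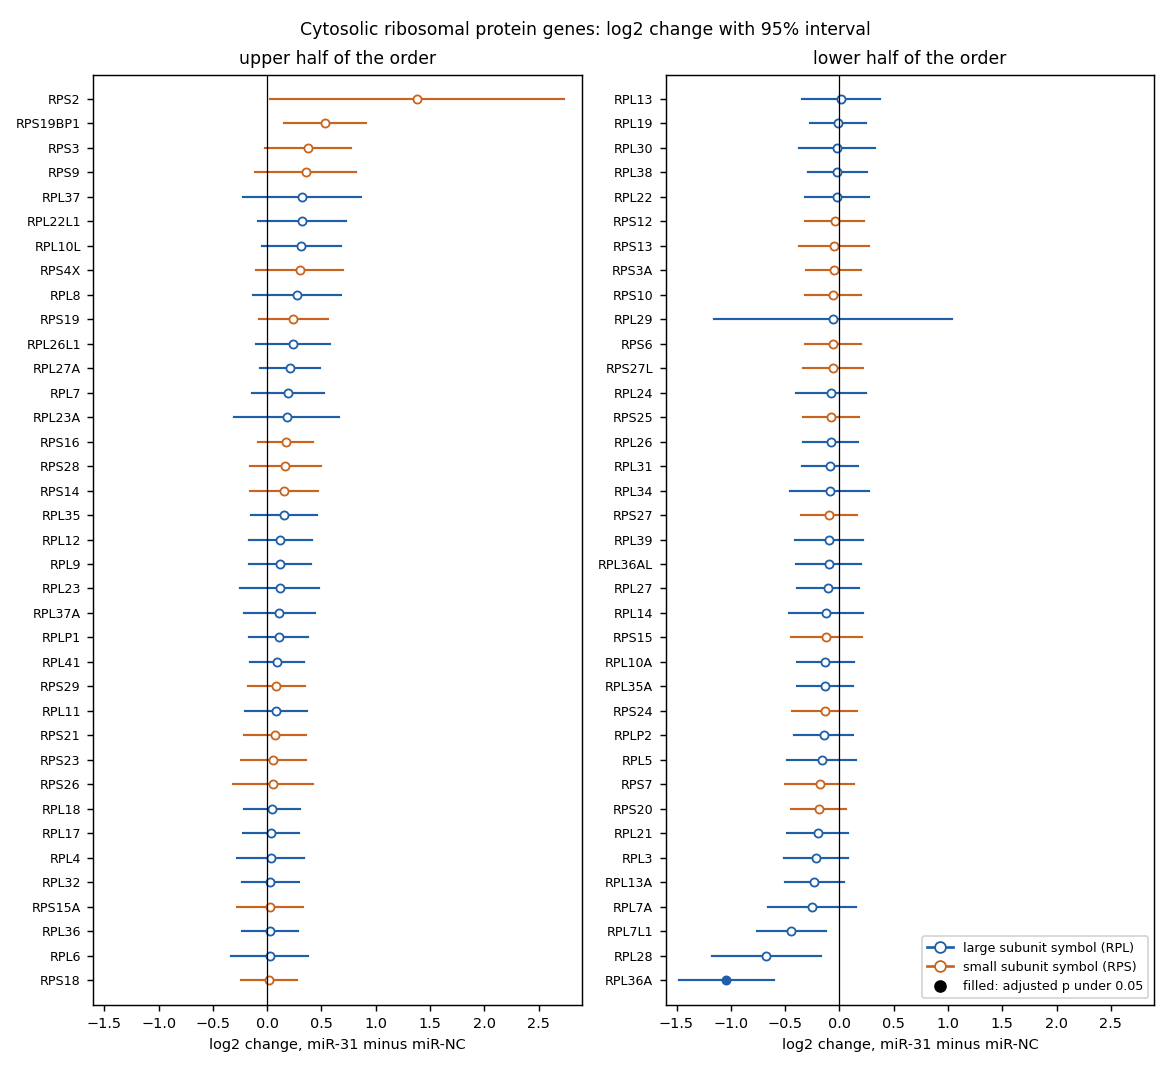
Log2 change in normalized probe signal, miR-31 minus miR-NC (horizontal axis), for each ribosomal protein gene tested outside chromosome Y, ordered by value over both panels; lines are 95% intervals from limma with 2 arrays per group, and a filled point marks an adjusted p under 0.05. RPL36A at -1.04 is the only filled point, and RPS2 at 1.38 has the widest interval.

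The changes were also narrow in range. An absolute log2 change under 0.25, which is a ratio under 1.19, was found for 63 of the 76 genes (82.9%), against 46.7% of all genes tested. For 55 genes (72.4%) the whole 95% interval lay within 0.5 log2 units of no change, a ratio of 1.41 either way; among all genes this held for 12.3%. Thus for most of these genes a change of that size lay outside the interval, and for the other 21 it did not. Both miR-31 arrays lay on one side of both miR-NC arrays for 29 genes (38.2%), 11 with miR-31 higher and 18 with miR-31 lower, where the same held for 55% of all genes. Quantile normalization gives every array the same distribution, so a change common to all transcripts would not appear, and fewer cells and less RNA per cell cannot be told apart in such samples.

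RPL36A, a large subunit protein near the exit site for transfer RNA, had the lowest change. Its normalized log2 signal was 8.77 and 8.55 on the miR-31 arrays, against 9.88 and 9.52 on the miR-NC arrays. Both miR-31 arrays lay below both miR-NC arrays, and the gap between the groups exceeded the difference within either. The mean was 8.66 ± 0.16 with miR-31 and 9.70 ± 0.26 with miR-NC (SD, n = 2 arrays each), a log2 change of -1.04 ± 0.20 (SE), or 2.06-fold lower signal (95% interval -1.48 to -0.60, limma adjusted p = 0.0167). The deposited signals before any correction were 379.6 and 443.4 with miR-31, against 1285.2 and 729.3 with miR-NC. The call was lost with median alignment (-1.15, limma adjusted p = 0.709) and without the variance trend (limma adjusted p = 0.0726). It was also lost without miR-31 replicate 1 (-1.15), miR-31 replicate 2 (-0.93) or miR-NC replicate 1 (-0.86). With either miR-31 array left out no probe of the whole table was called, so that loss is not particular to RPL36A. A second RPL36A probe was not detected on any array and gives no check.

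RPL7L1 is a paralog of RPL7 that works in the nucleolus on precursors of the large subunit. Its brighter probe read 11.88 and 11.85 on the miR-31 arrays, against 12.45 and 12.17 on the miR-NC arrays, a log2 change of -0.44 ± 0.14 that was not called (limma adjusted p = 0.101). Its second probe read 8.84 and 8.71 with miR-31, against 9.57 and 9.60 with miR-NC. This probe was called lower, at -0.82 ± 0.17 (limma adjusted p = 0.0263). With both probes, neither group overlapped the other, and the brighter probe is the one that stands for the gene in the counts above. The second probe's call was lost with median alignment (-0.93, limma adjusted p = 0.991), without the filter on dim probes (adjusted p = 0.0585) and without the variance trend (adjusted p = 0.0853). It was also lost without miR-31 replicate 1 (-0.88), miR-31 replicate 2 (-0.75) or miR-NC replicate 1 (-0.83). With either miR-31 array left out no probe of the whole table was called.

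RPL28, another large subunit protein, read 7.60 and 7.34 with miR-31, against 8.24 and 8.05 with miR-NC. The groups did not overlap, and the log2 change of -0.68 ± 0.22 missed the threshold (limma adjusted p = 0.113, 95% interval -1.18 to -0.17). The next lowest values were -0.25 ± 0.18 for RPL7A and -0.23 ± 0.12 for RPL13A, a large subunit protein also known as a silencer of inflammatory mRNAs; RPL13A did not overlap between groups and RPL7A did. RPL3, which lies close to the peptidyl transferase centre, had -0.22 ± 0.13 at its brighter probe. Its other probe had 0.00031 ± 0.12, with the groups overlapping. None of these 3 was called.

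At the other end, RPS2, a small subunit protein at the mRNA entry side, had the largest positive value and also the largest error. It read 13.03 and 13.61 on the miR-31 arrays, against 10.71 and 13.16 on the miR-NC arrays. Only miR-NC replicate 1 was low, and miR-NC replicate 2 lay between the miR-31 arrays. The log2 change of 1.38 ± 0.60 was not called (limma adjusted p = 0.216, 95% interval 0.028 to 2.74). Without miR-NC replicate 1 it was 0.16 (adjusted p = 0.781), and without miR-NC replicate 2 it was 2.61 (adjusted p = 1.93e-09), so the value rests on 1 array. With a miR-NC array left out, the miR-NC side has 1 array, which is assumed to vary like the miR-31 pair and the shared variance trend, so the p of such a fit does not measure the spread within miR-NC. The RPS2 value also passed the threshold with median alignment (1.30, adjusted p = 0.0177).

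RPS19BP1, also described as a binding partner and activator of the deacetylase SIRT1, read 10.20 and 10.09 with miR-31, against 9.48 and 9.75 with miR-NC. The groups did not overlap, and the log2 change of 0.54 ± 0.17 missed the threshold (limma adjusted p = 0.0978). RPS3, which lines the mRNA entry channel, read 13.41 and 13.45 with miR-31 and 12.77 and 13.33 with miR-NC, a change of 0.38 ± 0.18 (limma adjusted p = 0.243). RPS9 had 0.35 ± 0.20 and RPL37 had 0.32 ± 0.24, and their groups overlapped. Without miR-NC replicate 1 the RPS3 change was 0.097 (adjusted p = 0.838) and the RPS9 change 0.074 (adjusted p = 0.920). Without miR-NC replicate 2 they were 0.66 (adjusted p = 0.00392) and 0.63 (adjusted p = 0.0443), so both values rest on miR-NC replicate 1.

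**Figure D2:**
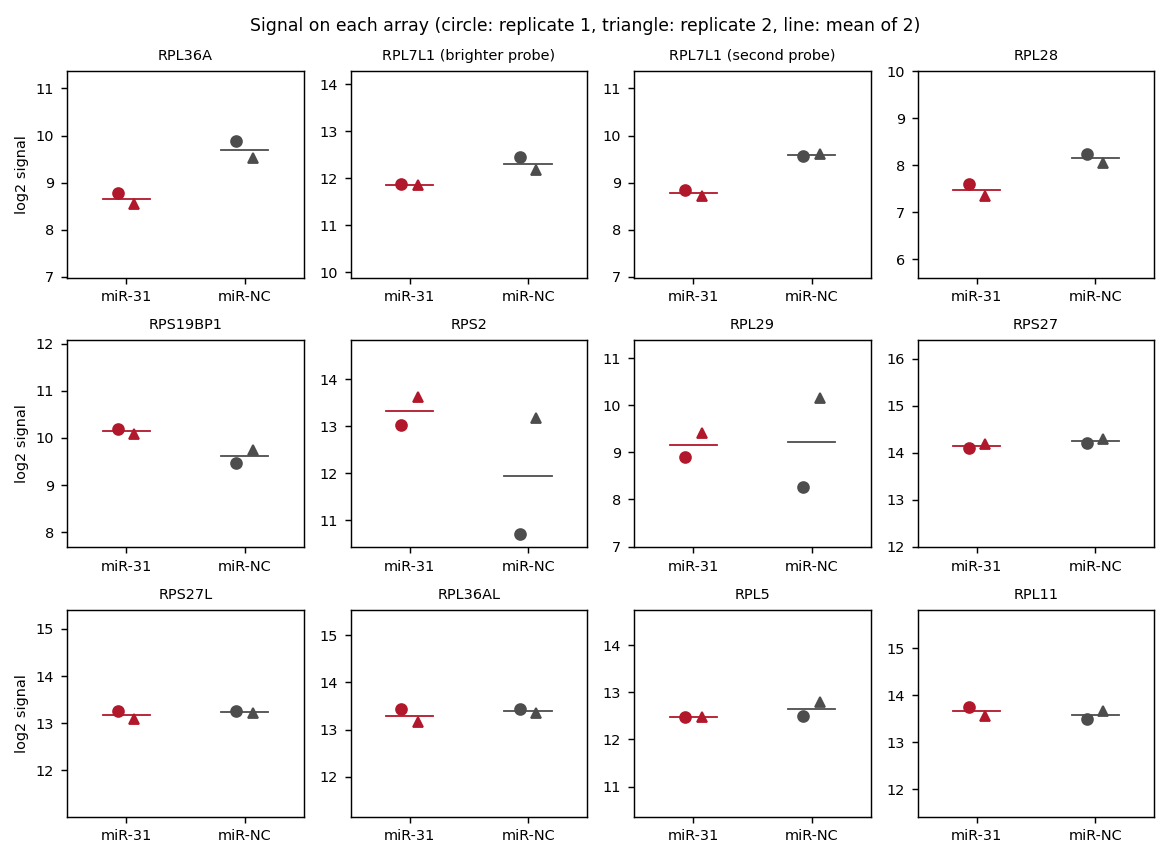
Normalized log2 signal (vertical axis) of 11 ribosomal protein genes on each array, miR-31 in red on the left of each panel and miR-NC in grey on the right; circles are replicate 1, triangles replicate 2, lines the mean of 2, and all panels span the same number of log2 units at different levels. RPL36A and both RPL7L1 probes are lower on both miR-31 arrays, while RPS2 is set apart by miR-NC replicate 1. For RPL29 the miR-NC arrays lie on either side of both miR-31 arrays.

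The spread between replicate arrays was small for most of these genes. The median absolute difference between the 2 miR-31 arrays was 0.12 log2 units, and between the 2 miR-NC arrays 0.16, where all genes tested had 0.22 and 0.21. A difference over 0.5 was seen for 4 genes between the miR-31 arrays and for 5 between the miR-NC arrays. The largest within miR-NC, replicate 1 minus replicate 2, were -2.45 for RPS2 and -1.89 for RPL29, a large subunit protein chosen here after its values were seen. RPL29 read 8.90 and 9.42 with miR-31, against 8.27 and 10.16 with miR-NC. The miR-NC arrays thus lay on either side of both miR-31 arrays, and the change of -0.058 ± 0.49 left a 95% interval of -1.16 to 1.04. Its direction turned with the array left out: leaving out miR-NC replicate 1 gave -1.001 (adjusted p = 0.0227), while leaving out miR-NC replicate 2 gave 0.89 (adjusted p = 0.0295), and it was called both times. The second RPL29 probe gave the same order of arrays, with 8.83 and 9.26 for miR-31 and 8.34 and 10.10 for miR-NC. Over the 76 genes, miR-NC replicate 1 was the lowest array for 29 (38.2%), against 21.6% of all genes tested. The next most frequent lowest array was miR-31 replicate 2, for 24 genes. Among the 6 comparison lists below, the miR-NC replicate 1 share ran from 17.0% (ribosome biogenesis) to 41.2% (S6 kinase pathway). It was 36.0% in the mitochondrial ribosomal proteins. RPL36A and RPL7L1 are not among the 29 genes, since miR-NC replicate 1 was the higher miR-NC array for both genes' representative probes.

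**Figure D3:**
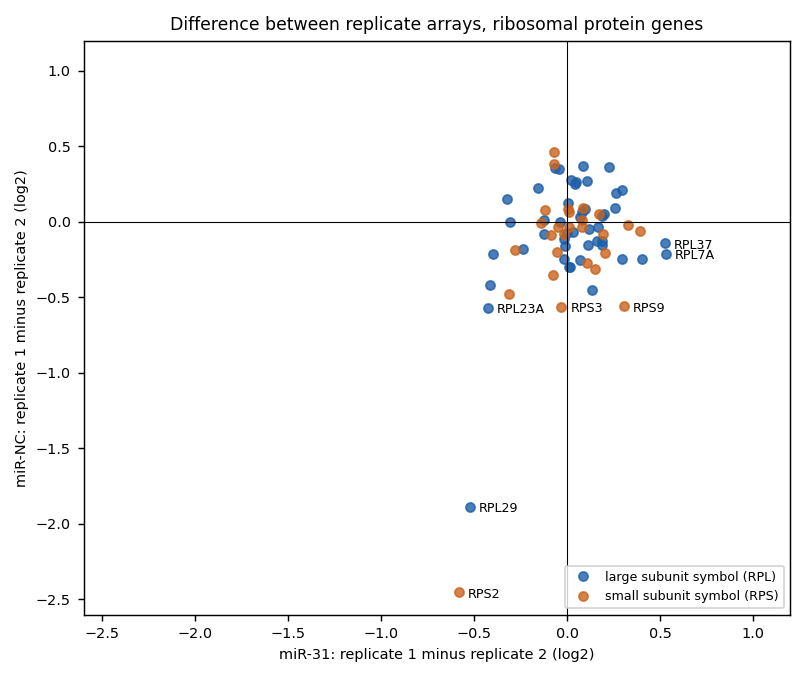
Difference between replicate arrays (replicate 1 minus replicate 2, log2) within miR-31 on the horizontal axis and within miR-NC on the vertical axis, 1 point per ribosomal protein gene tested outside chromosome Y. Most points lie within 0.5 of 0 on both axes, while RPS2 (-2.45) and RPL29 (-1.89) lie far down the miR-NC axis.

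Divided by subunit, both sides of the ribosome had medians near 0. The 42 standard large subunit genes had a median log2 change of -0.015, and only RPL36A was called. The 25 standard small subunit genes had a median of 0.029 and no call in limma, with 1 gene, RPS2, at an unadjusted p under 0.05. The stalk proteins, which recruit the GTPase factors of translation, were RPLP1 at 0.11 ± 0.12 and RPLP2 at -0.14 ± 0.12. RPLP1 read 14.05 and 13.86 with miR-31, against 13.87 and 13.83 with miR-NC, and RPLP2 read 14.28 and 14.09 with miR-31, against 14.27 and 14.39 with miR-NC. In both cases the groups overlapped.

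RPL5 and RPL11 travel with 5S ribosomal RNA and, when free, bind the ubiquitin ligase MDM2. RPL5 read 12.48 and 12.47 with miR-31, against 12.49 and 12.79 with miR-NC, and changed by -0.16 ± 0.14 (limma adjusted p = 0.545). RPL11 read 13.75 and 13.57 with miR-31, against 13.50 and 13.66 with miR-NC, a value of 0.079 ± 0.13, and its second probe gave -0.13 ± 0.12. Neither was called, and the RPL11 probes stood on opposite sides of 0. RPS6, the small subunit protein phosphorylated by S6 kinases, read 13.88 and 13.87 with miR-31 and 13.97 and 13.90 with miR-NC. Its log2 change was -0.059 ± 0.11, with a 95% interval of -0.31 to 0.20. RPS4X, an X-linked small subunit gene, had 0.30 ± 0.18 at its brighter probe and -0.084 ± 0.14 at the other.

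The paralogs were compared with their standard counterparts by change, since levels of different probes cannot be set against each other. The 8 paralogs tested had a median of -0.011 and no call by gene, with RPL7L1 at an unadjusted p under 0.05. RPL36A had -1.04 ± 0.20 while RPL36AL, an autosomal copy that encodes a nearly identical protein, had -0.10 ± 0.13 at its brighter probe and -0.36 ± 0.13 at the other. The brighter RPL36AL probe read 13.43 and 13.17 with miR-31, against 13.44 and 13.35 with miR-NC, so its groups overlapped. The other read 12.98 and 12.96 with miR-31, against 13.48 and 13.19 with miR-NC, with no overlap, and was not called (limma adjusted p = 0.153, unadjusted p = 0.0237). For RPL7L1 the change was -0.44 ± 0.14 and for RPL7 it was 0.19 ± 0.15. RPL22L1, an RNA-binding copy that can take the place of RPL22 in the ribosome, had 0.32 ± 0.18, against -0.023 ± 0.13 for RPL22. RPL26L1 had 0.24 ± 0.15 at its brighter probe and 0.23 ± 0.16 at the other, against -0.080 ± 0.11 for RPL26. RPS27L, known as a p53-responsive copy, had -0.061 ± 0.12 and RPS27 had -0.098 ± 0.11. RPL10L, a copy known from testis, had 0.32 ± 0.16, and its counterpart RPL10 was not tested. RPL39 had -0.099 ± 0.14 beside the untested RPL39L. The differences between partners were not tested. Ribosomal protein genes have many processed pseudogenes, and whether a probe also reads these or a near-identical copy was not tested.

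Where a gene had several tested probes, they usually gave close values. Of 31 such genes, the probes of 20 differed by under 0.25 in log2 change and those of 2 by over 0.5. RPL36 had 0.027 ± 0.11 at its brighter probe, with the groups overlapping, and 0.78 ± 0.40 at its dimmer one. The dimmer probe read 9.48 and 9.03 with miR-31, against 7.74 and 9.20 with miR-NC, so that miR-NC replicate 1 alone was low. The 3 RPS15 probes gave -0.12 ± 0.15, 0.12 ± 0.13 and 0.41 ± 0.22. On the last of these miR-NC replicate 1 read 9.79, against 10.49 and 10.64 with miR-31 and 10.51 on miR-NC replicate 2. None of these 5 probes was called.

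Ribosomal protein probes are bright, and brightness bears on how precisely a change is read. Of the 119 tested, 88 lay in the brightest 10% of all tested probes, and the highest member signal was 21441.3 and 18860.7 on the miR-31 arrays and 20582 and 21437.6 on the miR-NC arrays, below each array's own maximum. A closer comparison is therefore with other bright genes, although the sets are not matched in brightness. The median signal percentile was 99.1 for the bright ribosomal protein genes and 94.2 for the other bright genes. Of the 64 ribosomal protein genes in the brightest 10%, none was called by limma, 2 had an unadjusted p under 0.05, and 90.6% had an absolute log2 change under 0.25. Of the 1123 other genes in the brightest 10%, 36 were called higher and 54 lower (8.01%), and 58.9% had an absolute change under 0.25. Median standard errors were similar, 0.13 for the bright ribosomal protein genes and 0.14 for the other bright genes. The 12 ribosomal protein genes below the brightest 10% included RPL36A, RPL28, RPL29, RPS19BP1 and RPL37, and 5 of the 12 had an absolute change under 0.25.

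The start sites of these genes were then set beside their changes. For a gene with several entries, the one with the longest run was kept, among the members and all genes alike. That choice can raise the shares with a run, and the motifs below were read from the same entry. A run that begins with C at the start site and has at least 4 further C or T bases was found in 45 of the 66 genes with a RefSeq promoter entry (68.2%), and in 5.14% of all 27305 genes with an entry. It was present in 43 of 58 standard subunit genes (74.1%) and in 2 of 8 paralogs (25%). Among those shown, RPL36A, RPL28, RPL22, RPL22L1, RPL26 and RPS27 have it, and RPL7L1, RPL26L1 and RPS27L do not. RPL36AL has a run of 3, too short to count. The motif CCGGAAG, searched on both strands over 250 bases before and 50 after the start, was in 34.8% of the members' promoters and 10.6% of all, and CTTTCC, which can lie within the run, was in 45.5% and 26.2%. The 44 tested genes with the run had a median log2 change of -0.046, and the 21 without it 0.029. RPL36A, with a run of 10, was called, while RPL26, with a run of 12, had -0.080; these matches are descriptions of the reference sequence and were not tested against the changes.

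Other genes of ribosome assembly and translation were read from lists beside these. The mitochondrial ribosomal proteins, which build the separate ribosome of that organelle, had a median of 0.037. Of 75 tested, 0 were called higher and 2 lower (2.67%, against 7.66% of all genes tested). These were MRPL38 (-0.90, limma adjusted p = 0.0127) and MRPL34 (-0.83, limma adjusted p = 0.0418). Of 47 ribosome biogenesis genes, 0 were called higher and 4 lower by limma (8.51%, near the 7.66% of all genes tested). They were NLE1 (-2.10), NOP2 (-0.86), NOP56 (-0.70) and, outside the naming rule, BOP1 (-0.66), which act in pre-ribosomal RNA processing and large subunit assembly. That list's median was -0.37, with 35 of 47 values negative, against 0.016 in the ribosomal protein genes. NLE1 was detected on 1 of 2 miR-31 arrays, so its size depends on the background: it was -1.24 without background correction and -2.61 with the authors' values. NOP2 was -0.47 when its probes were averaged (adjusted p = 0.160).

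EIF4B, an initiation factor and S6 kinase substrate, was the only 1 of 43 initiation factors called, at -0.51 ± 0.13 (limma adjusted p = 0.0472). It was not called with cyclic loess (adjusted p = 0.0760). No elongation factor of 6 was called. EEF1G read 12.56 and 13.40 with miR-31, against 10.30 and 12.87 with miR-NC, the same order of arrays as RPS2, and its 1.39 ± 0.64 was not called (limma adjusted p = 0.243). Leaving out miR-NC replicate 1 gave 0.10 (adjusted p = 0.891), while leaving out miR-NC replicate 2 gave 2.67 (adjusted p = 1.04e-08), and it was called with median alignment (1.31, adjusted p = 0.0335). Among 39 other transcripts listed as having a TOP motif, EIF4B and SNHG1 (-0.67 ± 0.13, limma adjusted p = 0.0186) were lower. SNHG1 is a host gene of small nucleolar RNAs. None was higher, and the median was -0.016. That fixed list shares EIF4B, EEF1G and EEF1D with the factor lists, and the start sites of its genes were not examined. FAU, a small subunit protein gene outside the symbol rule, had -0.016 ± 0.12. Of 17 S6 kinase pathway genes, RPS6KA2 was called higher (0.88 ± 0.16, limma adjusted p = 0.0162) and none was lower. All 17 values were positive, with a median of 0.33, where 5187 of all 10754 genes tested were positive. The list mixes the RPS6KA and RPS6KB kinases with MTOR, RPTOR, RHEB, TSC1, TSC2, EIF4EBP1 and EIF4EBP2, among others. Pathway activity was not tested. The calls were 2.33% of the initiation factors, 5.13% of the other TOP genes and 5.88% of the S6 kinase pathway genes, against 7.66% of all genes tested. At an unadjusted p under 0.05 there were 17 mitochondrial ribosomal protein genes (22.7%), 21 ribosome biogenesis genes (44.7%), 7 initiation factors (16.3%), 1 elongation factor (16.7%), 8 other TOP genes (20.5%) and 4 S6 kinase pathway genes (23.5%), against 25.3% of all genes tested.

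The calls in these lists varied with the processing. With either miR-31 array left out no gene of any of the 6 lists was called, and no probe of the whole table was either. Without the variance trend NLE1 alone was called, and with median alignment NLE1 and EEF1G were. MRPL38, MRPL34, SNHG1 and RPS6KA2 thus each lost their call in those fits, with adjusted p of 0.772, 0.800, 0.805 and 0.935 under median alignment. MRPL34 was also not called with the authors' values (adjusted p = 0.0546) or without the filter on dim probes (adjusted p = 0.0677). Without miR-NC replicate 2 each of these lists had more calls than under the chosen settings, and so had the whole table.

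**Figure D4:**
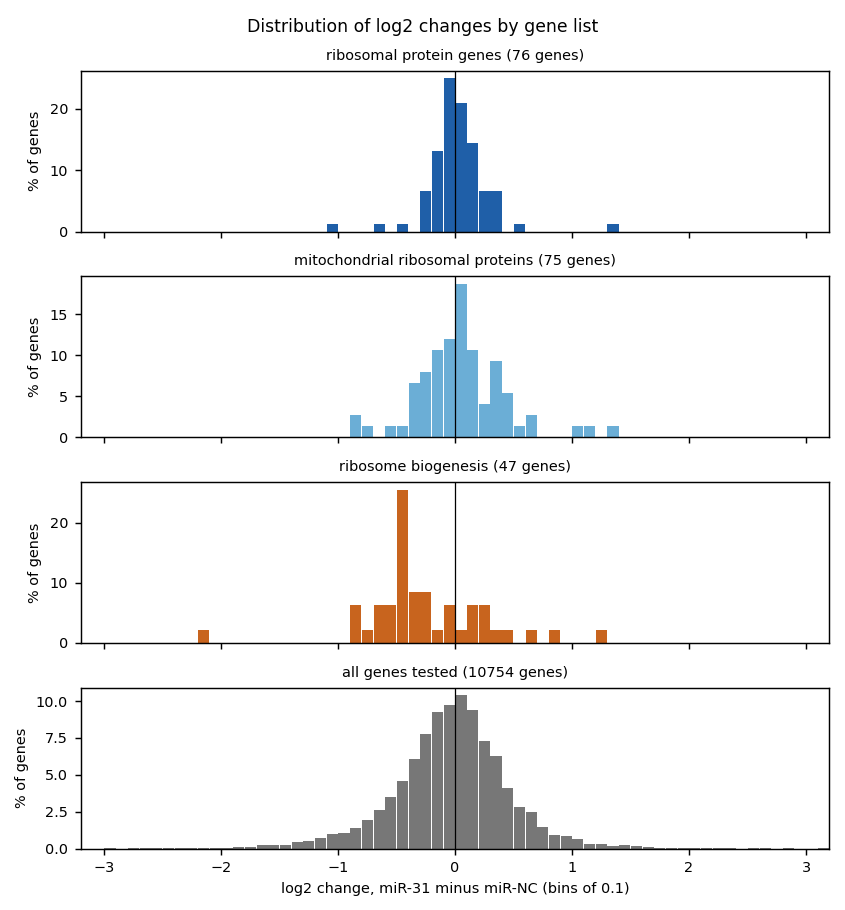
Share of genes (vertical axis, %) in bins of 0.1 of log2 change, miR-31 minus miR-NC (horizontal axis), for ribosomal protein genes, mitochondrial ribosomal proteins, ribosome biogenesis genes and all genes tested. The ribosomal protein genes crowd around a median of 0.016, while the ribosome biogenesis genes lie mostly to the left, with a median of -0.37.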

How the data were processed

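Signals came from 4 Illumina bead arrays, 2 with miR-31 and 2 with miR-NC. Per the file headers, the deposited probe table gives non-normalized intensity on a linear scale. The submitters' processing notes name BeadStudio; no version or background setting is stated in them. The deposited score beside each intensity is headed as a detection p-value but is highest for bright probes, so 1 minus the score was used as detection p. The authors' normalized intensity values served as an alternative, raised to a floor of 16 and converted to log2.

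The neqc function of limma 3.58.1 (R 4.3.3) removed background by detection p, added 16 to each signal, quantile-normalized the arrays and returned log2 values. Probes entered the test at a detection p under 0.05 on 2 or more of the 4 arrays, which left 18354 (38.9%). The fit used lmFit and eBayes with an intensity trend, two-sided p-values and Benjamini-Hochberg adjustment across every tested probe, with calls made under 0.05; degrees of freedom were 2 residual and 7.19 prior. The fit was tested on simulated data with independent noise and variances drawn from its own fitted prior. Such data cannot show how the fit handles arrays that deviate together or a single deviant array. With 2 arrays per group an exact permutation p cannot fall below 0.333, so calls borrow their spread from all probes, and array number limits the precision. Errors are standard errors unless given as SD.

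The platform annotation gave 1 symbol to 30113 probes, several to 8 and none to 17110, and 30074 were updated to a current gene. Each gene is shown by its brightest tested probe, judged on the mean of all arrays. Members, lists and tests were chosen with earlier results of these data known. Named genes were members with a called probe, the 5 highest and 5 lowest changes, each paralog pair, RPSA, the P proteins, RPL5, RPL11 and RPS6, genes whose probes differed by over 0.5, and the 3 smallest p in each list. Alternatives left out background correction, the dim-probe filter, the variance trend, each array or the non-standard members. Others changed the offset to 50, the normalization to median alignment or cyclic loess (also with members at weight 0), the detection p to 0.01 on all arrays or the threshold to 0.1, averaged a gene's probes, or added the replicate number as a block.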

Additional observations from a re-analysis of the deposited data

How the results depend on the processing

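The median log2 change of the ribosomal protein genes, 0.016, stayed between 0.0019 and 0.073 under the alternatives run with all arrays. It lay between -0.0039 and 0.033 with an array left out. These values are less than 0.078, the pooled SD between replicate arrays of each array's median ribosomal protein signal. Those medians were 13.60 and 13.62 with miR-31, and 13.50 and 13.66 with miR-NC. Most of that spread thus lies between the miR-NC arrays. Over all genes tested the median was -0.016, but -0.068 with median alignment and -0.064 without miR-NC replicate 2. The ribosomal protein median minus that of all genes was 0.032 under the chosen settings. It was 0.141 with median alignment, 0.097 without miR-NC replicate 2 and -0.010 without miR-NC replicate 1. The count of genes called was 1 under the chosen settings. It was 0 without the variance trend, 2 at a threshold of 0.1 (RPL36A and RPS19BP1), 2 when probes were averaged by gene (RPL36A and RPL7L1), and 0 to 8 with an array left out. It was 0 without either miR-31 array, 1 (RPL29, lower) without miR-NC replicate 1, and 8 without miR-NC replicate 2 (RPL36A and RPL7L1 lower, and RPL29, RPS19BP1, RPS2, RPS3, RPS4X and RPS9 higher). By probe the count of 2 became 1 with median alignment, 1 without the filter, 1 with standard subunits only, 0 without the variance trend, and 0 to 13 with an array left out. The 1132 probes called among all genes became 106 with median alignment, 359 without the variance trend, 2033 at a threshold of 0.1, and 0 to 2085 with an array left out. Of called probes, 34.0% were higher under the chosen settings, 57.5% with median alignment and 20.1% without the variance trend.

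RPL36A ran from -1.22 to -0.86 with an array left out, and was -1.15 with median alignment and -1.04 without the variance trend. The second RPL7L1 probe ran from -0.88 to -0.75 with an array left out, was -0.93 with median alignment, and stayed at -0.82 without the filter or the variance trend, where its call was lost. Over 30 named ribosomal protein genes and 480 values under alternatives, 433 kept both the direction and the side of the threshold and 29 changed sign. The largest of these was RPL29 at 0.89 without miR-NC replicate 2, where it was called, as it was at -1.001 without miR-NC replicate 1. With FAU, outside the symbol rule, added, the values that changed sign under median alignment were FAU 0.038, RPL26 0.035, RPL39 0.044, RPLP2 0.063, RPS15 0.031, RPS27 0.065, RPS27L 0.0037 and RPS6 0.067. With cyclic loess they were FAU 0.010, RPL22 0.011, RPLP2 0.0048, RPS27 0.010 and RPS6 0.025, and with the members at weight 0 they were FAU 0.015, RPL22 0.014, RPL39 0.0011, RPLP2 0.010, RPS27 0.016 and RPS6 0.030. With probes averaged by gene, RPL11 was -0.024 and RPS15 0.14. With an array left out, the ranges that crossed 0 were -0.094 to 0.062 for FAU, -0.016 to 0.17 for RPL11, -0.086 to 0.039 for RPL22, -1.001 to 0.89 for RPL29, -0.0071 to 0.060 for RPL36, -0.23 to 0.030 for RPL36AL, -0.26 to 0.061 for RPL39, -0.52 to 0.013 for RPL7A, -0.32 to 0.073 for RPS15 and -0.15 to 0.025 for RPS27L. NLE1 gave no value with detection p under 0.01 on all arrays. The causes of these shifts were not tested.

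The replicate numbers were also used as a block. Same-numbered arrays deviated together with a correlation of 0.22 over all tested probes and 0.29 over the members, but the labels do not say that a number marks a shared culture or day. With the replicate block, 4 of the 76 genes were called (RPL36A, RPL7L1, RPS19BP1 and RPS2) and 5 of the 119 member probes. Over the whole table it called 2536 of 18354 probes, 47.6% of them higher. In the comparison lists it called 7 of 75 mitochondrial ribosomal protein genes, 11 of 47 ribosome biogenesis genes and 4 of 43 initiation factors. It also called 2 of 6 elongation factors (EEF1G and EEF1D), 6 of 39 other TOP genes and 2 of 17 S6 kinase pathway genes.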
